A study of Mus musculus with 6 samples.

Results

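The keratins of simple and stratified epithelia, 10 genes, were followed in mucosa from the antrum of the mouse stomach, its distal, mucus-secreting part. They were chosen by name from the 34866 genes of the deposited table, 5 of them keratins of simple epithelia (Krt8, Krt18, Krt19, Krt7 and Krt20) and 5 of stratified or squamous epithelia (Krt4, Krt13, Krt5, Krt14 and Krt17). All 10 were found in the table. Polyadenylated RNA was sequenced from 3 wild-type libraries (genotype Muc6 +/+) and 3 knockout libraries (genotype Muc6 -/-), called wild type 1 to 3 and knockout 1 to 3. Muc6 encodes a gel-forming mucin of the antral glands, and the series asks how its loss relates to gastric carcinogenesis. The sources used here do not state strain, age or the kind of Muc6 mutation.

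Muc6 itself had 7295, 7158 and 8795 counts in wild type 1, 2 and 3, and 1, 0 and 0 counts in knockout 1, 2 and 3. The Y-linked gene Ddx3y had 1 to 6 counts per wild-type library and 924 to 989 per knockout library. Sex and genotype therefore cannot be told apart in any comparison below. Total estimated counts were 19839799 to 21354029 per library. In mucosa sequenced in bulk, fewer cells of a type and less RNA per cell cannot be told apart either.

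Keratins are the intermediate filament proteins of epithelia. A filament is built from pairs of an acidic type I and a basic type II keratin, and each epithelium is known for its own pairs. Gut and gastric columnar cells carry the type II keratin Krt8 with the type I keratins Krt18, Krt19 and Krt20, and some glandular and ductal epithelia add the type II keratin Krt7. Basal cells of stratified epithelia make Krt5 with Krt14, the layers above them in the mucosa of the oesophagus and forestomach make Krt4 with Krt13, and Krt17 is known from skin appendages and injured epithelium.

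The members lie in the keratin gene clusters. In mm10 coordinates of GENCODE M21, the type II genes Krt8 (chr15:101996698-102004482, minus strand), Krt7 (chr15:101411043-101430313, plus strand), Krt4 (chr15:101918535-101924735, minus strand) and Krt5 (chr15:101707070-101712898, minus strand) are on chromosome 15. The type I gene Krt18 (chr15:102028180-102032027, plus strand) is on chromosome 15 as well, next to Krt8. Their annotated start sites are 23698 bases apart with 0 protein-coding genes between them. The other type I members are on chromosome 11: Krt19 (chr11:100140810-100148665), Krt20 (chr11:99428403-99438150), Krt13 (chr11:100117327-100121566), Krt14 (chr11:100203162-100207548) and Krt17 (chr11:100256217-100261029), all on the minus strand.

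RefSeq promoter windows of 300 bases, 250 before the start site and 50 after it, were matched by symbol for 7 of the 10 members (build GRCm38.p6). The windows of Krt8 and Krt18 are shown because these neighbouring partner genes differed in direction below, that of Krt7 because it changed the same way as Krt18, and that of Krt13 as the most abundant stratified member. Capitals mark matches, on either strand, to TATAAA (the core of a TATA box), GGGCGG (a GC box), TGANTCA and GGAATG (the TEAD motif). TGANTCA, with any base at N, is a loose form of the AP-1 motif TGACTCA. The sequences run 5′ to 3′ along the gene.
Krt8 (chr15:102004293-102004592, minus strand): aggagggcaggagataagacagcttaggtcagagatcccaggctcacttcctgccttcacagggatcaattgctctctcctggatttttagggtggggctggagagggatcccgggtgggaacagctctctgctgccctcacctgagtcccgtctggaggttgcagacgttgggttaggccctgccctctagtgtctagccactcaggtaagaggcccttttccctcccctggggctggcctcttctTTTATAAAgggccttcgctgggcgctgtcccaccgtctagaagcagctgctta
Krt18 (chr15:102027966-102028265, plus strand): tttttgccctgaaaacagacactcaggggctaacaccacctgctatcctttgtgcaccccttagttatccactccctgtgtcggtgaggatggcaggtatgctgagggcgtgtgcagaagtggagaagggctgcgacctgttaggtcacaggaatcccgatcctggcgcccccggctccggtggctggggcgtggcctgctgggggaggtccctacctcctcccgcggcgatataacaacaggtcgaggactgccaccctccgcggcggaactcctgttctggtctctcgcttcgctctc
Krt7 (chr15:101412153-101412452, plus strand): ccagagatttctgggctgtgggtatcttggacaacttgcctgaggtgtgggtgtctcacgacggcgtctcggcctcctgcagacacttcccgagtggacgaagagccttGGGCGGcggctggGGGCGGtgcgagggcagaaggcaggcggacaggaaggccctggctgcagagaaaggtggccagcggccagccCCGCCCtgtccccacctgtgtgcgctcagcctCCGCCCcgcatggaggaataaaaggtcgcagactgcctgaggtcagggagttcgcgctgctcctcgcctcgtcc
Krt13 (chr11:100121517-100121816, minus strand): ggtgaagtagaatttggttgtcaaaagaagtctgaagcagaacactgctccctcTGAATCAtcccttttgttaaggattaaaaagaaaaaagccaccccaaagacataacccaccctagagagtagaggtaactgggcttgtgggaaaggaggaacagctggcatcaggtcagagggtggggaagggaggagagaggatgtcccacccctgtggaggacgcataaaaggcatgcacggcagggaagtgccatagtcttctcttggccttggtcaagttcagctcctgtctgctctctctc
These motifs were found in 13.6% (TATAAA), 35.7% (GGGCGG), 7.8% (TGANTCA) and 14.7% (GGAATG) of all 32851 RefSeq promoter windows. The window of Krt8 held TATAAA on both strands in overlapping matches, that of Krt7 held 4 matches to GGGCGG, and that of Krt13 held 1 match to TGANTCA. This Krt13 match reads TGAATCA, which is not the AP-1 motif itself. The Krt8 matches lie at -3 and -1 from the start site of the window. That start site lies inside the annotated gene, so the matches are downstream of the annotated start at 102004482. The Krt7 window lies inside the annotated gene and does not span its annotated start. RefSeq gives Krt13 a second window, not shown, with 2 matches to TGANTCA, each reading TGACTCA. The printed window is the 1 that spans the annotated start of the gene. Krt18 held no match to any of the 4 motifs in this window. Krt20, whose sequence is not shown, held 1 match to TATAAA and 3 to GGAATG. A match is a run of letters and does not show that a factor binds there.

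Levels are given as CPM, counts scaled to a library of 1000000 after correction for composition (TMM). Changes are log2 ratios, knockout against wild type, from edgeR's quasi-likelihood test, with the standard error (SE) and a Benjamini-Hochberg adjusted p over all 14017 genes tested. A gene was called at an adjusted p under 0.05. Of all tested genes 38.4% were called, 19.3% higher and 19.2% lower in the knockout, and the counts of keratins below are to be read against these shares. The libraries of the genotypes did not overlap in CPM for 54.8% of tested genes. The median log2 change of all tested genes was 0.02, and 0.43 where libraries were scaled to total counts alone. That scaling gave 84.0% of the called genes as higher against 50.1%. Nothing in the labels says that libraries came from separate animals, so p-values measure the spread between these libraries, which may be technical.

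Of the 5 simple keratins, 2 rose (Krt18 and Krt7), 1 fell (Krt8) and 2 did not pass the test (Krt19 and Krt20). Their median log2 change was -0.12. Without both libraries numbered 1, which stood apart from the other 4 on the second principal component (19.6% of the variance), the same 2 and 1 were called. All 5 were abundant in every library. Of the 5 stratified keratins, 3 passed the low-count filter and all 3 were higher in the knockout (Krt4, Krt13 and Krt14), while Krt5 and Krt17 had too few counts to be tested. Krt4 and Krt14 passed that filter only through the knockout libraries, so their being called adds nothing to the count.

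**Figure D1:**
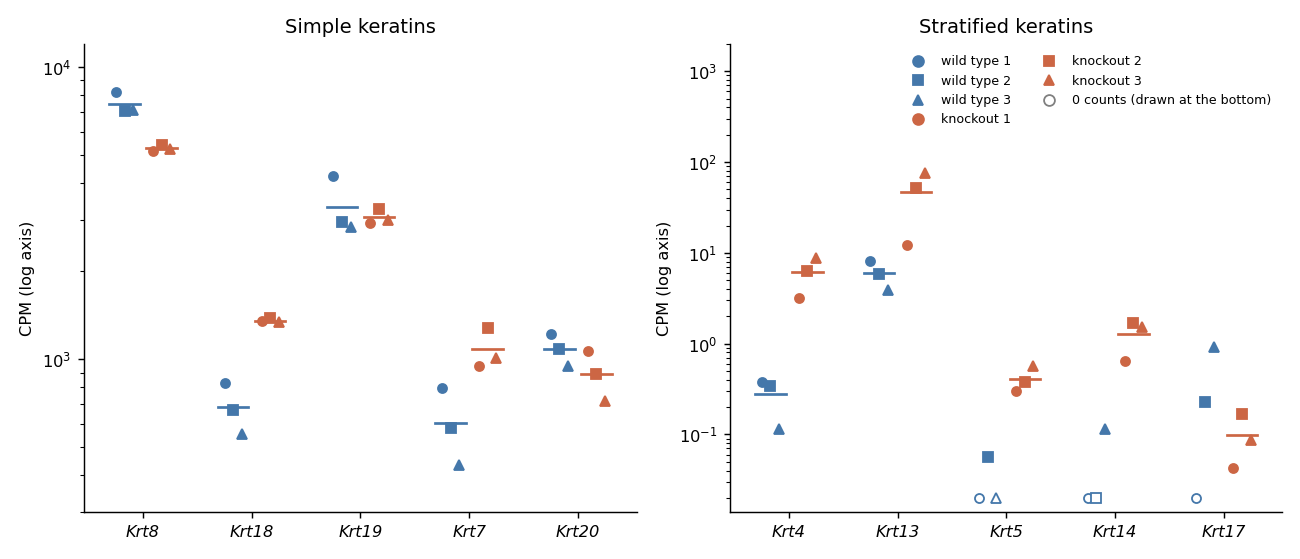
CPM on log axes for the 5 simple keratins (left) and the 5 stratified keratins (right) in each library; symbols mark the library number, colours the genotype, lines the group means where no library was at 0, and open symbols at the bottom 0 counts. Krt18 lies between 554 and 829 CPM in wild type, and between 1338 and 1384 CPM in the knockout, whereas Krt19 and Krt20 overlap.

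Krt8, the type II keratin that pairs with every simple type I keratin, was the most abundant member. Wild type 1, 2 and 3 measured 8231, 7049 and 7142 CPM, and knockout 1, 2 and 3 measured 5146, 5413 and 5244 CPM. All knockout libraries lay below all wild-type libraries, which 26.6% of all tested genes did. The level went from 7474 ± 657 to 5268 ± 135 CPM (SD, n = 3 each), a fall of 1.42-fold (log2 -0.50, SE 0.13, edgeR adjusted p = 0.0189). Leaving out wild type 2 (adjusted p = 0.0505), knockout 2 (0.0655) or knockout 3 (0.0626) ended the call, as did scaling to total counts (log2 -0.09, adjusted p = 0.596), and in all it ended in 5 of 15 settings. Krt8 ranked 14 among all genes by mean CPM in wild type, and 11 in the knockout.

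Krt18, the type I partner of Krt8, moved the other way. Wild type 1, 2 and 3 measured 829, 669 and 554 CPM, against 1346, 1384 and 1338 CPM for knockout 1, 2 and 3. The lowest knockout library was above the highest wild-type library, as for 28.2% of all tested genes. Krt18 went from 684 ± 138 to 1356 ± 24.9 CPM (SD, n = 3 each), 1.98-fold higher (log2 0.99, SE 0.16, edgeR adjusted p = 0.00319). It was called in all 15 alternative settings, at log2 changes of 0.67 to 1.41. Its rank among all genes went from 162 to 51.

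Krt7 is the type II keratin of many ducts and glands. Its CPM was 795, 580.4 and 436 for wild type 1, 2 and 3, and 950.2, 1282 and 1010.1 for knockout 1, 2 and 3. The groups did not overlap, and wild type 1 was the wild-type library nearest to the knockout. The rise from 604 ± 181 to 1081 ± 177 CPM was 1.79-fold (log2 0.84, SE 0.23, edgeR adjusted p = 0.0250). The call ended without wild type 2 (adjusted p = 0.0938), wild type 3 (0.0600), knockout 2 (0.0841) or knockout 3 (0.0508).

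Krt19, a type I keratin of glandular and ductal cells, was the member next in abundance to Krt8. The wild-type libraries measured 4227, 2938 and 2824 CPM, the knockout libraries 2928, 3266 and 2996 CPM. Wild type 1 was the highest library and the other 5 lay close together. Krt19 did not pass the test (log2 -0.12, SE 0.18, 95% interval -0.54 to 0.29, edgeR adjusted p = 0.620). Without wild type 1 the estimate was 0.08 (adjusted p = 0.595), and scaling to total counts gave 0.30 (adjusted p = 0.200). It was called as lower once the GC dependence of each library was taken out (log2 -0.45, adjusted p = 0.0340).

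Krt20 is a type I keratin of surface cells in the stomach and intestine. Its CPM was 1220.4, 1086 and 950.05 for wild type 1, 2 and 3, and 1063, 888 and 718 for knockout 1, 2 and 3, so that the groups overlapped. It did not pass the test (log2 -0.29, SE 0.17, 95% interval -0.69 to 0.11, edgeR adjusted p = 0.220). Surface pit cells were checked with 10 marker genes, of which 9 fell and 1 did not pass. Without knockout 1, or without both libraries numbered 1, 8 were lower and 1 was higher. The number lower was 7 with total counts, without wild type 3 or without knockout 2. The summed level of the 10 markers was 164521 to 190832 CPM in wild type, and 39551 to 52495 CPM in the knockout. Among them Sytl2, a vesicle trafficking gene, went from 453 ± 31.9 to 163 ± 10.7 CPM (log2 -1.48). The part of this change in the levels of the keratins was not tested.

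**Figure D2:**
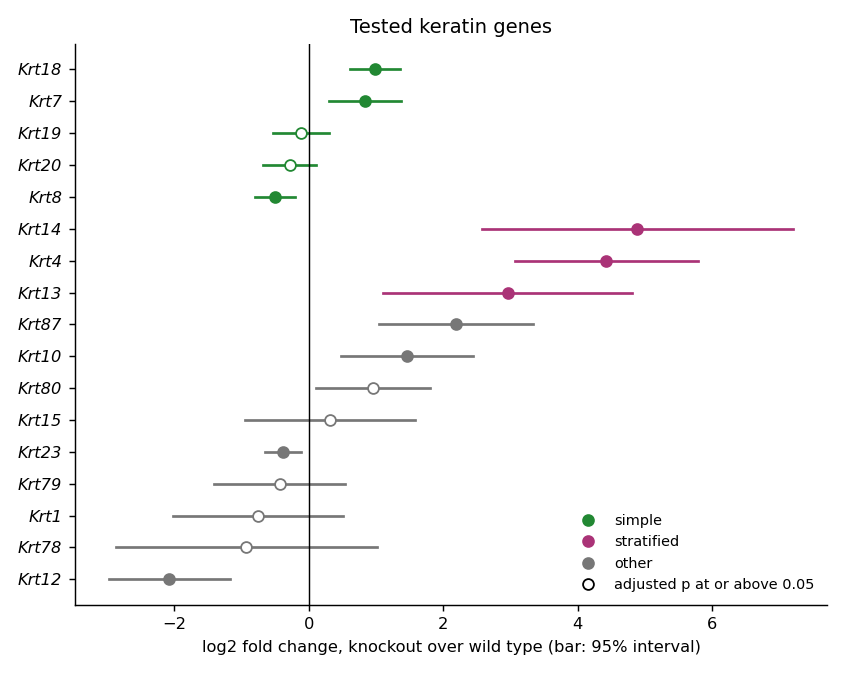
Log2 fold change of knockout over wild type with its 95% interval for the 17 tested keratin genes, coloured by type; filled points have an edgeR adjusted p under 0.05. Krt18 and Krt7 lie right of 0 and Krt8 left of it, and the intervals of the stratified keratins Krt4, Krt13 and Krt14 all lie above 1.

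Since keratin proteins pair, levels were also set against each other within a library, as CPM per kb of merged exon length. These ratios do not depend on how libraries are scaled. Krt8 exceeded Krt18 by 7.29, 7.74 and 9.47 times in wild type 1, 2 and 3, and by 2.81, 2.87 and 2.88 times in knockout 1, 2 and 3. The ratio was 8.16 ± 1.15 in wild type, and 2.85 ± 0.0395 in the knockout (SD, n = 3 each). The knockout libraries were nearly alike in it, and the groups did not overlap. The ratio of Krt8 to Krt19 was 1.84 to 2.40 in wild-type libraries and 1.57 to 1.66 in knockout libraries, also without overlap. Krt19 to Krt18 was 3.40 to 3.95 in wild-type libraries and 1.68 to 1.83 in knockout libraries.

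**Figure D3:**
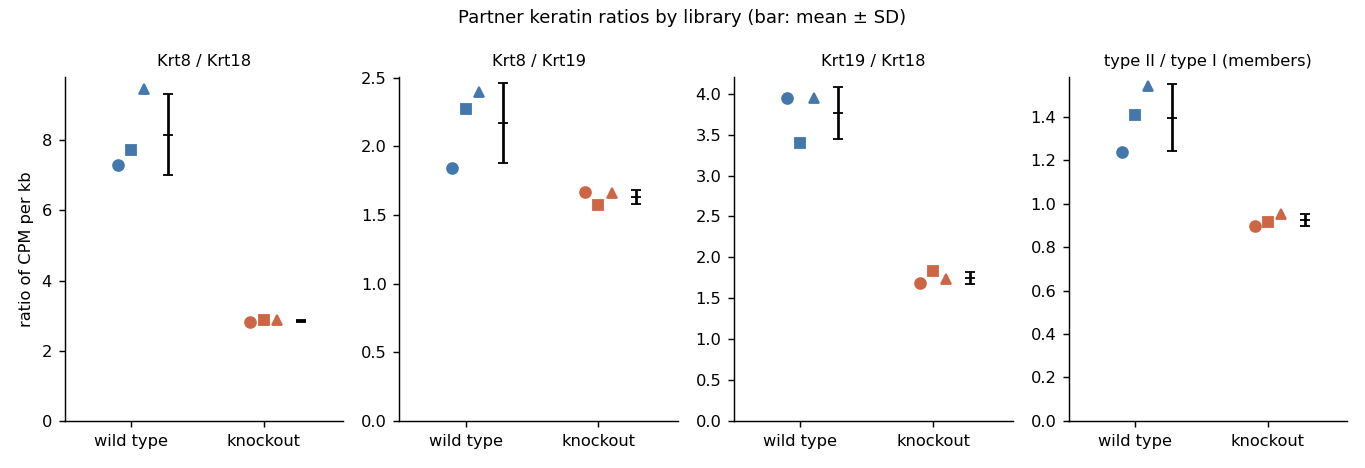
Ratios of CPM per kb of merged exons between partner keratins in each library, with the mean ± SD of each genotype beside the points. In each panel the knockout points lie below all wild-type points, and Krt8 over Krt18 goes from 8.16 ± 1.15 to 2.85 ± 0.0395.

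Summed over the 10 members, type II keratins (Krt8, Krt7, Krt4 and Krt5) exceeded type I keratins in wild type, with ratios of 1.24, 1.41 and 1.54. In the knockout type I keratins were slightly in excess, with ratios of 0.899, 0.918 and 0.954. The mean went from 1.40 ± 0.154 to 0.924 ± 0.0280, and with lengths of the longest transcript from 1.27 to 0.876. The sum of all 10 was 6113 to 7810 CPM per kb in wild-type libraries and 5787 to 6164 in knockout libraries, so the groups overlapped in the total. The 10 genes together took 1.03% to 1.32% of all counts in wild-type libraries and 1.31% to 1.43% in knockout libraries. That share is not corrected for composition, unlike the sums in CPM per kb, so the 2 are on different scales.

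Krt8 made up 53.8% to 59.7% of the summed keratin level per kb in wild-type libraries and 44.8% to 46.3% in knockout libraries. The share of Krt18 was 6.30% to 7.39% in wild-type libraries and 15.6% to 16.1% in knockout libraries. Krt19 held 24.9% to 29.2% and 27.0% to 28.6%, and Krt20 8.07% to 8.95% and 6.43% to 9.45%, with overlap for both. Krt7 held 1.01% to 1.44% in wild-type libraries and 2.31% to 2.95% in knockout libraries. Its share depends on the length taken, since the annotated exons of Krt7 merge to 7049 bases and its longest transcript has 4094, and with the latter the means were 2.04% and 4.15%.

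The order of levels per kb in wild type was Krt8 (3817 ± 336 CPM per kb), Krt19 (1795 ± 420), Krt20 (563 ± 70.2), Krt18 (476 ± 96.2), Krt7 (85.6 ± 25.6) and Krt13 (3.29 ± 1.16), then Krt17, Krt4, Krt14 and Krt5, each under 1. Krt20 and Krt18 overlapped, as did each neighbour from Krt17 to Krt5. In the knockout Krt18 (944 ± 17.3) stood above Krt20 (462 ± 89.7) without overlap. The stratified members then followed as Krt13 (25.8 ± 17.8), Krt4 (2.87 ± 1.32), Krt14 (0.733 ± 0.325), Krt5 (0.188 ± 0.0632) and Krt17 (0.0636 ± 0.0404).

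**Figure D4:**
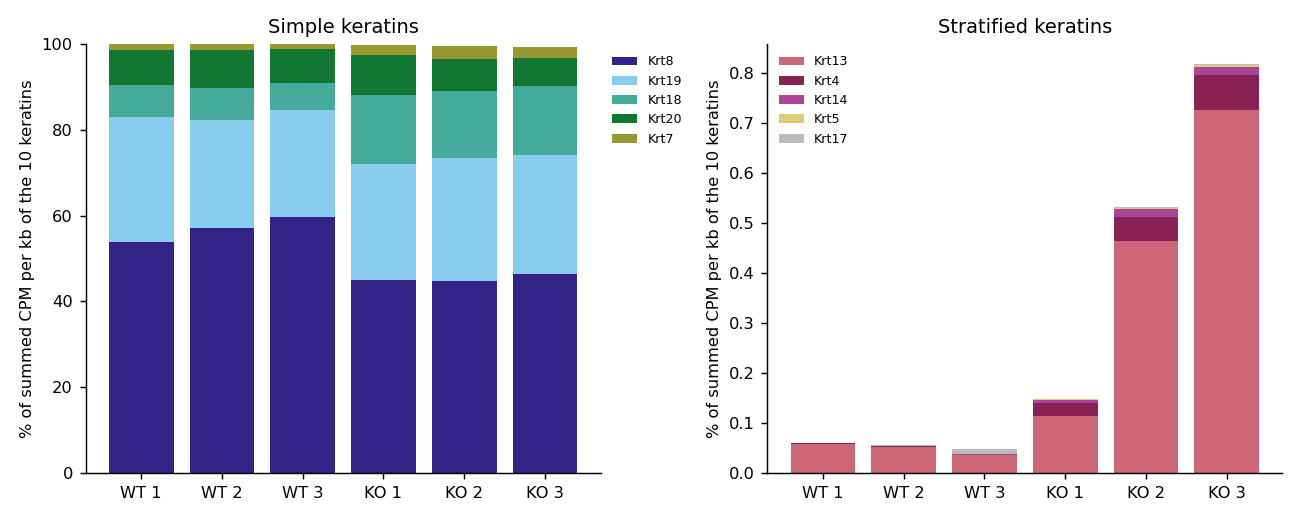
Share of each member in the summed CPM per kb of the 10 keratins for each library, with simple keratins on the left and, on an axis that ends below 1%, stratified keratins on the right. Krt18 holds 6.30% to 7.39% in wild-type libraries and 15.6% to 16.1% in knockout libraries, and the stratified share is highest in knockout 3 at 0.817%.

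The stratified members were a minor part of the summed level of the members in every library. Together they made up 0.0472% to 0.0596% of the summed level per kb in wild type, and 0.149%, 0.532% and 0.817% in knockout 1, 2 and 3. Krt13 supplied most of it in each library.

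Krt13, the type I keratin of the upper layers of mucosal squamous epithelium, measured 8.15, 5.91 and 3.94 CPM for wild type 1, 2 and 3, against 12.2, 52.1 and 76.5 CPM for knockout 1, 2 and 3. Knockout 1 was the lowest of the knockout libraries by a wide margin, yet above all wild-type libraries. The mean went from 6.0 ± 2.10 to 46.9 ± 32.5 CPM (log2 2.96, SE 0.74, edgeR adjusted p = 0.0279). The call ended in 8 of 15 alternative settings, with an adjusted p of 0.0529 to 0.135, among them leaving out wild type 1, 2 or 3 or knockout 2 or 3.

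Krt4, the type II partner of Krt13, had 7, 6 and 2 counts in wild type 1, 2 and 3, and 75, 153 and 202 counts in knockout 1, 2 and 3. In CPM this was 0.380, 0.337 and 0.116 against 3.19, 6.36 and 8.81. The order of the knockout libraries was that of Krt13. The change was log2 4.42 (SE 0.58, edgeR adjusted p = 0.00153), with a counting interval of 13.0-fold to 39.1-fold for the ratio of summed counts. It was called in all 15 alternative settings, though it passed the low-count filter only through the knockout libraries. The ratio of Krt13 to Krt4 per kb was 20.5 to 39.8 in wild-type libraries and 4.47 to 10.2 in knockout libraries.

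Krt14, the type I keratin of basal cells, had 0, 0 and 2 counts in wild type, and 15, 41 and 35 in the knockout. The ratio of summed counts was 34.5, with a 95% interval of 9.27 to 289 that covers counting error only (edgeR adjusted p = 0.00806). Its type II partner Krt5 had 0, 1 and 0 counts in wild type, and 7, 9 and 13 in the knockout, a ratio of 22.0 (3.64 to 897). Krt5 did not pass the low-count filter. Without that filter its edgeR adjusted p was 0.0294, in a fit that called 24.1% of 21396 genes. Both genes stayed under 2 CPM in every knockout library.

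Krt17 was the stratified member that was not higher in the knockout libraries. It had 0, 4 and 16 counts in wild type, and 1, 4 and 2 counts in the knockout, with most counts in wild type 3. The groups overlapped, and without the filter its edgeR adjusted p was 0.321.

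Counts of close copies carry an uncertainty, since the counting program is not known. Of all runs of 50 bases in the transcripts of Krt14, 13.9% also occur in transcripts of other genes, most of them in Krt16. For Krt5 the share was 12.2%, mostly with Krt6a, and for Krt17 it was 3.99%. Krt8 shared 29.7% of its runs, largely with the pseudogene Krt8-ps, which had 1 to 7 counts in any library. Krt19, Krt20, Krt4 and Krt13 shared none, Krt18 0.72% and Krt7 0.92%. Krt7 was the member with estimated counts that were not whole, in 5 of 6 libraries.

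The deposited table lists 44 further keratin genes, of which 17 had no counts in any library and 18 had counts but too few to be tested. Of the 9 tested, 2 rose, 2 fell and 5 did not pass, with 1 lower without any single library other than wild type 1. Krt87, a hair-type keratin, went from 1.05 ± 0.104 to 4.78 ± 2.87 CPM (log2 2.18, SE 0.49, edgeR adjusted p = 0.0120), with knockout 1 highest at 7.99 CPM. Krt10, a type I keratin of the upper epidermis, rose from 2.76 ± 0.479 to 7.64 ± 3.67 CPM (log2 1.47, SE 0.42, adjusted p = 0.0292), a call that ended in 7 of 15 settings. Krt12, known as the type I keratin of the cornea, fell from 5.63 ± 1.84 to 1.33 ± 0.376 CPM (log2 -2.08, SE 0.38, adjusted p = 0.00566). Krt23 fell from 178 ± 19.4 to 136 ± 9.12 CPM (log2 -0.39, SE 0.12, adjusted p = 0.0335). Its call ended in 9 of 15 settings (adjusted p 0.0518 to 0.833), among them leaving out any single library other than wild type 1, and with total counts the estimate was 0.03.

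Krt16 and Krt6a, partners known from injured and fast-growing stratified epithelium, were chosen after their values were seen. They were picked from the 18 further keratins with too few counts to be tested and do not stand for that group. In summed counts, wild type against knockout, Krt222 (29 against 13), Krt26 (14 against 4) and Krt77 (16 against 12) went the other way. Krt76 (1 against 17) did not. Krt16 had 0 counts in each wild-type library and 7, 32 and 32 in knockout 1, 2 and 3, at least 17.9-fold higher against a floor of 3 counts over the group. Krt6a had 0, 0 and 1 counts in wild type, and 5, 5 and 5 in the knockout, a ratio of 11.4 (95% counting interval 1.75 to 478). As for Krt13, Krt4 and Krt14, knockout 1 held the fewest Krt16 counts of the knockout libraries.

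The stratified keratins were set beside 18 markers of squamous epithelium, the tissue of the forestomach that adjoins the glandular stomach in mice. Of these markers 13 did not pass the low-count filter. Without that filter 16 of them were fitted, with a median log2 change of 0.67 against 0.05 over all genes fitted. In that fit edgeR called 0 of the 16 higher and 2 lower. Krtdap, Sprr3, Crnn and Trp63 are named after their values were seen. Krtdap and Sprr3, markers of differentiated squamous cells, had 0 counts in all 6 libraries, and Crnn had 1 count, in knockout 1. Trp63, the transcription factor that defines basal squamous cells, had 0, 3 and 0 counts in wild type, and 0, 7 and 0 in the knockout. Of the 5 tested markers, Serpinb5, a serpin of many epithelia, fell (167 ± 22.7 to 118 ± 3.32 CPM, log2 -0.51, edgeR adjusted p = 0.0154) and 4 did not pass. The call of Serpinb5 ended in 6 of 15 settings: total counts (log2 -0.09), GC dependence taken out (log2 -0.02, adjusted p = 0.879), and leaving out wild type 2, wild type 3, knockout 2 or knockout 3. DESeq2 called 1 of the 5 higher and 3 lower, and edgeR called 3 lower when knockout 1 was left out. Leaving out wild type 3 gave 0 lower, and leaving out knockout 3 gave 0 lower with 1 higher.

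**Figure D5:**
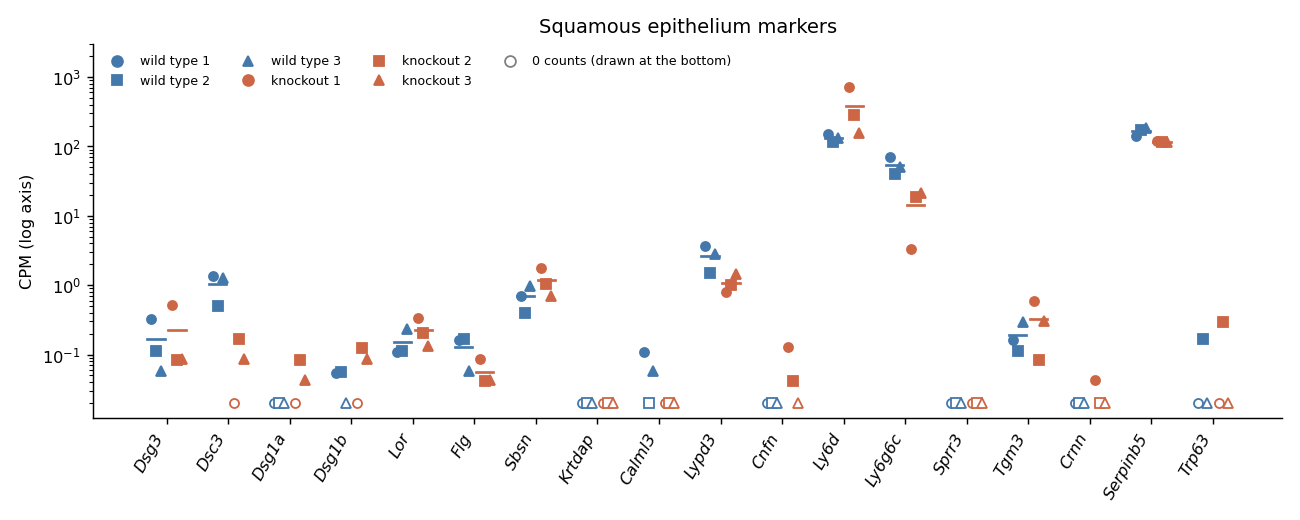
CPM on a log axis of the 18 squamous epithelium markers in each library; open symbols at the bottom mark 0 counts, and lines the group means where no library was at 0. Krtdap and Sprr3 are at 0 in all libraries, and Ly6d, the marker with the highest level, is highest in knockout 1 at 715 CPM.

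The summed level of these markers was 334 to 374 CPM in wild type, and 844, 422 and 295 CPM in knockout 1, 2 and 3. Ly6d, a surface protein of several epithelia and of lymphoid cells, made up most of the sum in each knockout library. It had 149, 117 and 131 CPM in wild type, and 715, 284 and 155 CPM in the knockout. The order of the knockout sums was that of Ly6d, so these sums do not show how the other markers were ordered. Knockout 1 held the highest Ly6d and the lowest Krt13, Krt4 and Krt14 of its group.

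Among 12 regulators of squamous epithelium, 8 were tested, of which 3 rose, 2 fell and 3 did not pass. Grhl3, a grainyhead-family factor of epithelial barriers, went from 0.298 ± 0.0579 to 6.91 ± 2.11 CPM (log2 4.50, SE 0.41, edgeR adjusted p = 5.13e-04). Zfp750, a factor of late squamous differentiation, rose by 1.32 and Pitx1, a homeobox gene, by 0.59 on the log2 scale (adjusted p 0.00998 and 0.0190). Taking out the GC dependence left Pitx1 at 0.13 (adjusted p = 0.314), and its call also ended when wild type 2, knockout 2 or knockout 3 was left out. Klf4, named after its values were seen, was lower (log2 -0.89, adjusted p = 0.0245), a call that ended in 6 of 15 settings (adjusted p 0.0510 to 0.146), among them total counts and leaving out wild type 2 or any single knockout library. The number lower was 1 without wild type 2 or any single knockout library, and the number higher 5 without wild type 1 and 5 with total counts.

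Keratin filaments are anchored at desmosomes and hemidesmosomes by plakins and their partners. Of 24 such genes 18 were tested, of which 7 rose, 3 fell and 8 did not pass, with a median log2 change of 0.40. Ppl, the plakin periplakin, went from 7.92 ± 0.677 to 27.3 ± 5.94 CPM (log2 1.78, SE 0.19, edgeR adjusted p = 7.25e-04). Pkp1, a plakophilin known from stratified epithelium, went from 1.5 ± 0.537 to 8.74 ± 1.25 CPM (log2 2.54, adjusted p = 0.00148). Itgb4, the hemidesmosomal integrin subunit, rose from 88.8 ± 11.8 to 244 ± 52.1 CPM (log2 1.46, adjusted p = 0.00119). Perp, a desmosomal membrane protein, fell from 535 ± 20.8 to 278 ± 19.9 CPM (log2 -0.95, adjusted p = 7.92e-04). The desmosomal cadherins Dsg2 and Dsc2, named after their values were seen, were lower by log2 -0.57 and -0.58, calls that ended with total counts (adjusted p 0.293 and 0.322). Dsc2 also lost its call once the GC dependence was taken out (log2 -0.25, adjusted p = 0.252). Without wild type 2, 4 of these genes were higher and 4 lower, without wild type 3 the numbers were 4 and 3, and with total counts 12 and 1. Once the GC dependence was taken out they were 5 and 3, with a median log2 change of 0.12.

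General epithelial genes were higher in 9 of 18 members, with a median log2 change of 0.59, and the other 9 did not pass. Epcam, an epithelial adhesion molecule, went from 329.8 ± 36.6 to 737 ± 42.2 CPM (log2 1.16, SE 0.12, edgeR adjusted p = 6.71e-04). Cldn7, a claudin, went from 15.3 ± 4.60 to 111 ± 13.2 CPM (log2 2.86, adjusted p = 3.26e-04). Without wild type 2, 5 were higher, without wild type 3, 6, and with total counts 16. Their summed level was 2627 to 3427 CPM in wild type, and 4429 to 4984 CPM in the knockout, while that of the simple keratins was 11906 to 15302 and 11305 to 12234 CPM.

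Markers of other tissues also differed between libraries. Of 12 tested intestinal markers, 6 rose, 1 fell and 5 did not pass. Some of the 6 passed the low-count filter only through the knockout libraries, so their being called adds nothing to the count. The intestinal markers summed to 1984, 3142 and 4348 CPM in knockout 1, 2 and 3 against 2295 to 2610 CPM in wild type. The number higher was 1 without wild type 2, 3 without wild type 1 or wild type 3, 11 without knockout 1 and 1 with limma-voom. Smooth muscle and myoepithelial markers summed to 253, 1888 and 3850 CPM in wild type 1, 2 and 3, and to 86.8, 1131 and 792 CPM in the knockout, with wild type 1 and knockout 1 lowest. None of the 8 tested passed with edgeR, DESeq2 or limma-voom, and 0 had an unadjusted edgeR p under 0.05. Without both libraries numbered 1, 3 of them were lower. Of 8 tested immune markers 3 rose and 5 did not pass, with sums of 10.6 to 74.5 and 77.8 to 122 CPM. Those that rose include a gene that passed the low-count filter only through the knockout libraries. For this list edgeR called 1 without wild type 3 and 0 without wild type 2 or any single knockout library. Mesothelial markers, a cell layer that also makes simple keratins, had 1 gene higher (Msln) and 1 lower (Gpm6a) of 3 tested. Leaving out wild type 2, wild type 3 or knockout 1 ended the call of Msln, and the markers summed to 2.47 to 7.39 CPM in wild type, and 3.79 to 7.39 CPM for the knockout. The part of these differences in the keratin results was not tested.

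The genes whose level followed each member most closely over the 6 libraries were found by Pearson's r of log2 CPM among tested genes outside the keratin family, as a description over 6 points that share their libraries and genotype. For Krt8 they were Sh3d21 and Gata6 (r = 0.999 each). For Krt18 they were Ddx47 (0.9997) and Lmnb1 (0.997), for Krt7 Gbf1 (0.994) and Taf15 (0.993), and for Krt19 Ypel3 (0.996) and Tomm6 (0.994). Krt20 was followed by Rufy4 (0.988) and Abcc5 (0.981). Krt4 was followed by Tle1 and Nans (0.997 each), Krt13 by Esam (0.998) and Cyp4f14 (0.996), and Krt14 by Trbc2 (0.9996) and Bmp6 (0.996). Krt14 and Trbc2 had wild-type means of 0.0387 and 0.0580 CPM, near the wild-type floor of 0.0562 CPM. Their r therefore says little beyond the difference between genotypes.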

How the data were processed

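The file the authors deposited holds estimated counts for each gene and library, a unit read from the values: 28.8% to 34.25% of the nonzero entries of a library are not whole numbers. Per the labels' protocols RNA came from a Nucleospin RNA kit and libraries from a TruSeq Stranded mRNA kit, and per the submitters' processing notes the build was mm10. The aligner, counting program or annotation was not given in the sources used here. Of 34866 identifiers 34582 were matched to a symbol without the version number, and exon lengths and positions came from GENCODE M21 (mm10).

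Counts were rounded, filtered with filterByExpr (minimum count 10), scaled with TMM and compared by genotype with robust quasi-likelihood fits in edgeR 4.0.16 (R 4.3.3), adjusted over all 14017 tested genes. The test was run on simulated data first. A precision limit follows from depth: 3 counts over a group, the floor for a gene with no counts, came to 0.0562 CPM for wild type and 0.0425 CPM for knockout. Intervals of summed counts are exact and cover counting error only. Replicates differed by far more than sampling noise (17.1 to 85.4 chi-square units per degree of freedom), so none was treated as a repeat deposit of another; that does not show separate animals.

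The members and gene lists were chosen with earlier results of these data known. Named are the 10 members, other keratins past the threshold, up to 4 genes of each other list with the smallest adjusted p (or 2 with the smallest p where none passed) and the 2 genes most like each tested member. Not all of these are described, and 1 gene is not reported here. Krt16, Krt6a, Krtdap, Sprr3, Crnn, Trp63, Ly6d, Klf4, Dsg2, Dsc2, Vim and Des are named outside this rule, after their values were seen. So are the keratins Krt1, Krt15, Krt78, Krt79, Krt80, Krt222, Krt26, Krt77 and Krt76. Alternatives were RLE factors, total counts, no filter or 1 CPM in 3 libraries, DESeq2 1.42.0, limma-voom (limma 3.58.1), a replicate block, each library left out, both libraries numbered 1 left out and, added after the data were seen, a GC offset.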

Additional observations from a re-analysis of the deposited data

How the results depend on the processing

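Krt18 was called as higher in all 15 settings tried. Krt4 was called in all 15 as well, and Krt14 in all 14 that tested it. Both Krt4 and Krt14 passed the low-count filter only through the knockout libraries, so their calls add nothing to the count. Calls ended in 8 settings for Krt13, 4 for Krt7 and 5 for Krt8, and the cause was not tested. Members higher numbered 3 to 5 and members lower 0 to 1 with each library left out, and genes higher 1600 to 3045 and lower 1721 to 2964. With total counts, 5730 genes were higher and 1091 lower, and 0 members lower, with Krt19 at 0.30 and Krt20 at 0.13 in the reverse direction. Krt19 ranged from -0.24 to 0.079 with each library left out, was at 0.079 without wild type 1 and at 0.10 without both libraries numbered 1. With the GC trend removed 2 members were lower. With the length of the longest transcript the knockout ratio of type II to type I was 0.876, and Krt7 held 2.04% in wild type and 4.15% in the knockout. Depth limited Krt5 and Krt17, whose counts were too few for the low-count filter, so that the adjusted p given for each comes from the fit without it.

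The replicate numbers were not taken as a pairing, since same-numbered libraries deviated together with r of 0.25, 0.09 and 0.19 and not every library correlated best with its own number. With the replicate number as a block 0 members were lower (Krt8 adjusted p = 0.0551) and the call of Krt13 ended (0.0560), with 2572 genes higher and 2497 lower. In that fit 5 of the 8 tested smooth muscle and myoepithelial markers were lower, against 0 without the block, and Klf4 and Krt23 lost their calls (adjusted p 0.0660 and 0.0734).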

Other observations

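Intermediate filament genes outside the keratin family were compared in the same fit. Of 12 tested, 3 rose and 9 did not pass. The nuclear lamin genes Lmnb1 and Lmna rose, Lmnb1 from 33.8 ± 4.20 to 50.1 ± 1.75 CPM (log2 0.57, SE 0.12, edgeR adjusted p = 0.00924) and Lmna from 167 ± 31.1 to 243 ± 19.7 CPM (log2 0.54, adjusted p = 0.0289). Nefh, a neurofilament subunit, went from 0.566 ± 0.222 to 2.38 ± 0.384 CPM (log2 2.06, adjusted p = 0.0102). The call of Lmna ended without wild type 2, knockout 2 or knockout 3 and with the GC trend removed (adjusted p 0.0631 to 0.0951). Vim, the filament of mesenchymal cells, measured 9.78, 37.3 and 57.3 CPM for wild type 1, 2 and 3, against 37.0, 49.9 and 52.1 CPM for knockout 1, 2 and 3, and did not pass (adjusted p = 0.625). Des, the muscle filament desmin, measured 29.3, 147 and 352 CPM for wild type 1, 2 and 3, against 3.27, 156 and 103 CPM for knockout 1, 2 and 3, lowest in the libraries numbered 1 of both genotypes.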
